A study of Homo sapiens with 2 samples.

Results

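Extracellular matrix is the material that cells secrete around themselves, and the 40 genes described here encode collagens, laminins, proteoglycans, adhesive glycoproteins, and enzymes and inhibitors that act on them. They were 40 of the 61487 genes counted in 2 single-cell RNA sequencing libraries of human serotonin neurons. These known matrix genes were chosen by values of the same data: raw counts of unique molecular identifiers (UMIs, 1 for each captured transcript copy), pooled levels, and shares of their UMIs in a small set of barcodes. A barcode stands for 1 captured cell, and that set held every barcode with at least 5 UMIs of COL1A1, COL1A2, COL3A1, DCN and LUM together. Such barcodes are called collagen barcodes here. Pooled levels are in CPM, the UMIs of a gene for every 1000 x 1000 UMIs of all kept cells of a library. Because these values selected the members, they are given as a description and support no claim about them.

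The study asked what the transcription factor FOXA2 does while human pluripotent stem cells turn into serotonin neurons of the hindbrain. Cells of the H9 (WA09) embryonic stem cell line, with EGFP as a reporter of TPH2, were differentiated for 42 days and sorted for EGFP. TPH2 encodes the enzyme of the first step of serotonin synthesis in neurons. There was 1 library labelled WT, for wild type, and 1 labelled FKO, for FOXA2 knockout. The knockout lines of the study were made with CRISPR/Cas9 in more than 1 way, by stop codons placed in an exon and by a small insertion or deletion, and were grown from picked drug-resistant clones. The labels name no line, and the study's methods describe the reporter knockout line as built on the line with the insertion or deletion. The dose of purmorphamine, a Hedgehog agonist that patterns the cells, was not stated for the sequenced cultures in the sources used here.

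The library labelled WT had 123064653 UMIs over 11052 barcodes, and the library labelled FKO had 70588747 UMIs over 8806. Cells needed 1000 UMIs and 500 genes or more and a mitochondrial share of 10% or less, and 5750 and 6978 were kept once likely doublets were removed. Kept cells of the library labelled WT were deeper, with a median of 12459 UMIs against 6927, and had a larger median mitochondrial share, 7.82% against 5.33%. The libraries shared 21 barcode sequences, 5 of them among kept cells and 0 among collagen barcodes. With 1 library per label there were no replicates and no test between them. Intervals in brackets are exact 95% intervals, of Poisson counts for levels, by Clopper-Pearson's method for shares, and given the summed UMIs of a gene for ratios. They cover counting error only.

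FOXA2 (ENSG00000125798) was read first, since it is the gene that the FKO label names. The library labelled WT held 334 of its UMIs and the library labelled FKO 1265, or 4.35 CPM (3.89 to 4.84) and 21.8 CPM (20.7 to 23.1). The targeted gene was thus higher in the library labelled as its knockout, with a log2 ratio of FKO over WT of 2.33 (2.15 to 2.51), which goes against the label. The size of this difference depended on which cells entered. Cells with at most 5% mitochondrial UMIs held 47 and 377 FOXA2 UMIs, with a log2 ratio of 0.17 (-0.27 to 0.64), an interval that includes 0. Kept cells with a TPH2 UMI gave 2.19 (1.92 to 2.46). Counts from the 3′ end of transcripts do not show a small edit within a gene, so the genotype of either library was not read from them. Every direction below rests on the labels, and WT and FKO name the libraries by their labels only.

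The sorted cell type was checked against 8 serotonergic markers, and all 8 were detected in both libraries. Their summed level was 2744 CPM in WT and 2319 CPM in FKO. Among them 0 were called higher and 1 lower by the limits set out below, and their log2 ratios, FKO over WT, had a median of 0.62, against 0.47 for all genes compared. TPH2, FEV and DDC were lower in FKO, and the other 5 higher. The most abundant was FEV, a transcription factor of serotonin neurons and the 1 called lower, at 1584 and 908 CPM, and TPH2 itself stood at 198 and 161 CPM. All 8 neuronal markers were detected too, with summed levels of 10144 CPM in WT and 14694 CPM in FKO and STMN2 as the most abundant.

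Collagens are trimers of helical chains. Fibrillar collagens form the cables of connective tissue, while collagen IV, laminins and nidogens form the basement membrane, the sheet under epithelia and around vessels and nerves. Neurons of the central nervous system are surrounded by a different matrix, rich in hyaluronan and in the chondroitin sulfate proteoglycans versican, brevican and neurocan, and fibrillar collagen in and around the brain comes mostly from the meninges, vessels and other mesenchymal cells.

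Summed over the 40 members, matrix transcripts made up 488 CPM in WT (37480 UMIs) and 1150.2 CPM in FKO (66607 UMIs). Every member was detected in both libraries, and 38 of the 40 stood at a higher level in FKO, as did 77.5% of the 28465 genes with more than 3 UMIs in either library. The exceptions were COL4A6, whose levels hardly differed, and TIMP1, which was lower in FKO. Collagen barcodes made up 102 of 5750 kept cells in WT, 1.77% (1.45 to 2.15), and 175 of 6978 in FKO, 2.51% (2.15 to 2.90). They held 2.59% and 3.71% of all UMIs but 15.7% and 45.8% of the members' UMIs. Such shares helped to choose the members, and 5 members define the barcodes, so nothing is read from this difference.

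**Figure D1:**
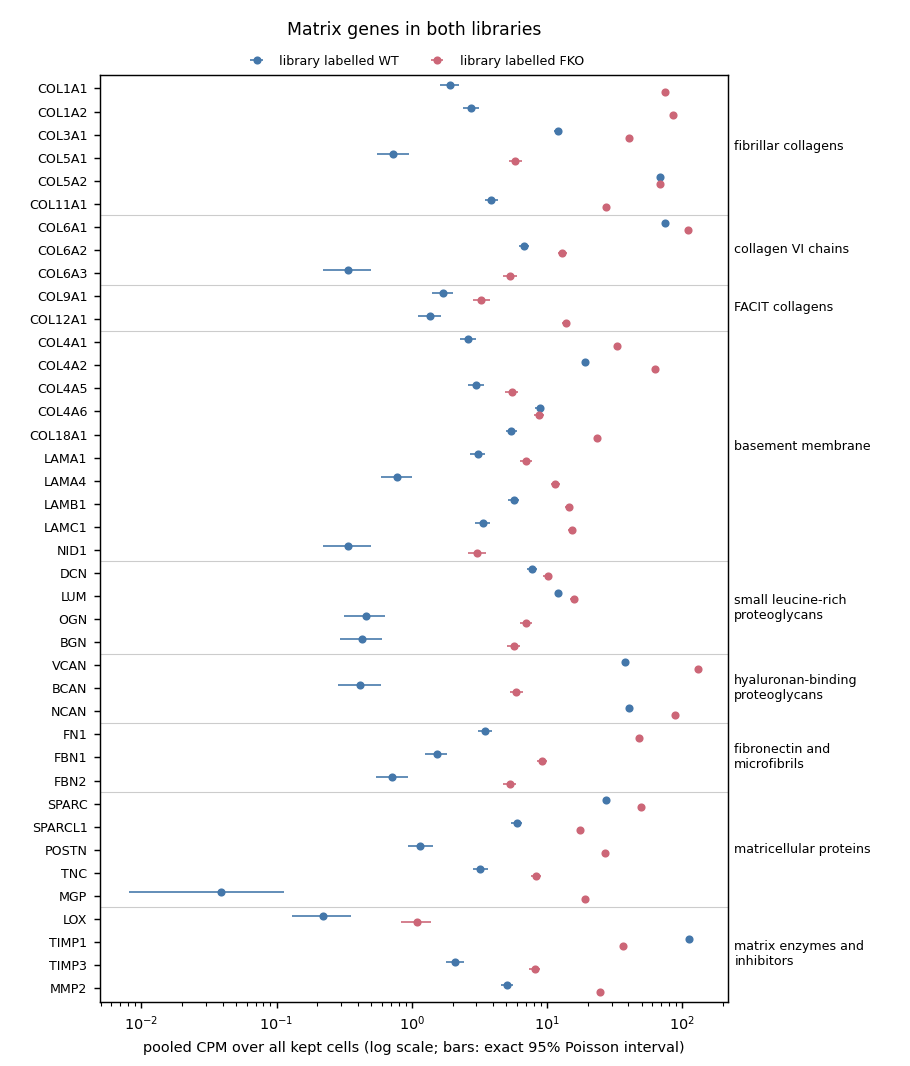
Pooled level of each of the 40 matrix genes in the library labelled WT (blue) and the library labelled FKO (red), in CPM on a log scale and grouped by role. Points are over all kept cells and bars are exact 95% Poisson intervals. Most genes lie further right in FKO, as most genes of the libraries did.

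The threshold cut through a thin tail. Most kept cells had no UMI of the 5 defining genes, 5235 in WT and 6218 in FKO. Just outside the threshold, 20 and 29 cells had exactly 4 such UMIs, and just inside it 9 and 16 had exactly 5. Collagen barcodes were deeper than other kept cells, with medians of 18069 against 12404 UMIs in WT and 9605 against 6887 in FKO. Their median mitochondrial shares were 6.85% in WT and 6.02% in FKO, against 7.83% and 5.31% of other cells. Doublet marking fell on them unequally: of deposited collagen barcodes past the other limits, 10 of 112 were marked in WT (8.93%) and 47 of 222 in FKO (21.2%), against 9.95% and 7.86% of all such barcodes.

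Which library had more collagen barcodes depended on the cells that entered. At most 5% mitochondrial UMIs left 340 cells in WT and 2888 in FKO, and the order turned, with collagen barcodes at 4.71% of WT and 1.63% of FKO. Among kept cells with a TPH2 UMI they were fewer in both, 0.559% and 0.928%. With every cell thinned to 2000 UMIs they made up 0.175% in WT and 1.18% in FKO.

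To compare levels between the libraries, genes were required to reach 10 CPM in either of them, which 9676 genes did. The median of their log2 ratios, always taken as FKO over WT, was 0.47, and the 5th to the 95th percentile ran from -0.73 to 1.53. A gene was called higher or lower where its ratio lay at least 2-fold above or below that median. Of the 40 members, 25 passed the limit, 9 in both libraries and 16 through FKO alone, so those 16 had to be higher there. Among the 25, 16 were called higher in FKO, where 5.75% of all genes compared were, and 1 was called lower, TIMP1, where 9.70% of all were. The members were picked on this contrast, so nothing is read from these counts. Without a minimum level, 26 of the 40 lay at least 2-fold above that same median, as did 25.1% of the 28465 genes with more than 3 UMIs in either library. At least 2-fold below it lay 1 of the 40 and 9.99% of those genes.

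The counts moved with the cells and the limit, and so did the number compared. At most 5% mitochondrial UMIs, 8 of 21 members compared were called higher and 4 lower, against 9.91% and 14.4% of all genes. Among cells with a TPH2 UMI 8 of 16 were called higher, against 6.42% of all, and at a minimum of 50 CPM 4 of 8, against 6.26%. Leaving the collagen barcodes out of both libraries lowered the ratio, set against the median of all genes, of 32 of 39 members. MGP was not counted, since its ratio outside them is a lower bound only. The 5 defining genes were counted, although the rule itself limits their UMIs outside collagen barcodes. Shares in these barcodes helped to choose the members, so nothing is read from this count or from the medians that follow. The median over the 25 that passed the limit was 1.80 with all kept cells and 1.47 outside collagen barcodes, against 0.47 for all genes compared outside them.

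**Figure D2:**
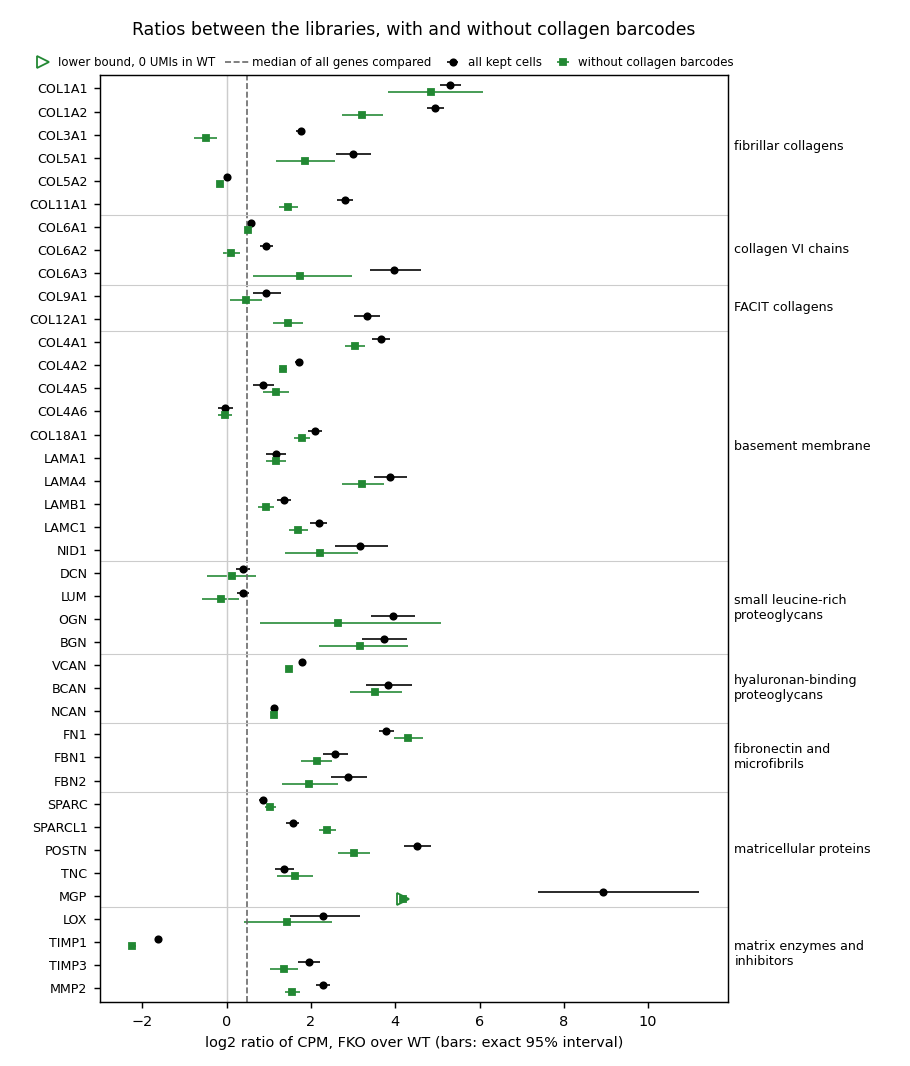
Log2 ratio of CPM, FKO over WT, of each matrix gene over all kept cells (black circles) and with collagen barcodes left out (green squares), with exact 95% intervals as bars, the median of all genes compared as a dashed line and a triangle for a lower bound. Most points shift to the left without collagen barcodes, and COL5A2 passes below 0, while FN1, SPARCL1, COL4A5, SPARC and TNC shift to the right. Shares in these barcodes helped to choose the genes, so these shifts are not read. For COL1A1, COL1A2, COL3A1, DCN and LUM, which define these barcodes, the values outside are cut by the rule itself and the shift is not read.

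Among the fibrillar collagens, the 2 chains of collagen I differed most between the libraries. COL1A1 (ENSG00000108821) and COL1A2 (ENSG00000164692) encode the chains of collagen I, the main collagen of skin, bone and meninges. COL1A1 stood at 1.90 CPM (1.60 to 2.24) in WT and 75.0 CPM (72.8 to 77.3) in FKO, and COL1A2 at 2.75 CPM (2.39 to 3.14) in WT and 85.2 CPM (82.8 to 87.6) in FKO. Their log2 ratios were 5.30 (5.06 to 5.55) and 4.95 (4.76 to 5.16). In WT a single cell carried much of both. It held 421 UMIs of the defining genes, where the next had 71, and carried 128 of 146 COL1A1 UMIs (87.7%) and 79 of 211 COL1A2 UMIs (37.4%). Without the top cell of each library the log2 ratios were 8.26 and 5.60. No such cell stood out in FKO, where the top 372 and the next 363 UMIs were close and the top cell held 4.05% of COL1A1.

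COL3A1 (ENSG00000168542), the chain of collagen III in elastic tissues and vessel walls, stood at 12.0 CPM in WT and 40.6 CPM in FKO over all kept cells, a log2 ratio of 1.76 (1.65 to 1.87). Its ratio outside collagen barcodes is not read, since its own UMIs help to define them. Among the regulatory chains, COL5A1, a chain of collagen V that sets fibril width, stood at 0.729 CPM in WT and 5.84 CPM in FKO, and COL11A1, its counterpart in cartilage fibrils, at 3.88 CPM in WT and 27.2 CPM in FKO. Their log2 ratios were 3.001 (2.59 to 3.44) and 2.81 (2.63 to 2.99). COL5A2, the other collagen V chain, was level in CPM between the libraries at 67.9 CPM in WT and 68.1 CPM in FKO. Its log2 ratio of 0.00 (-0.06 to 0.06) lay below the median of 0.47 for all genes compared. COL5A2 lay mostly outside collagen barcodes, which held 2.57% of its UMIs in WT and 13.8% in FKO.

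Collagen VI forms beaded filaments next to basement membranes from 3 chains, and these did not move together. COL6A1 was broadly present at 74.6 CPM in WT and 111 CPM in FKO, a log2 ratio of 0.57 (0.52 to 0.62) close to the median of all genes. COL6A2 followed at 6.74 CPM in WT and 13.0 CPM in FKO, 0.95 (0.78 to 1.11), and outside collagen barcodes its interval included 0, 0.11 (-0.09 to 0.31). COL6A3 stood at 0.338 CPM in WT and 5.34 CPM in FKO, 3.98 (3.40 to 4.62). Collagen barcodes held 61.5% of its UMIs in WT and 91.9% in FKO. The WT share rests on 16 of 26 UMIs (40.6 to 79.8%), found in 3.92% of WT collagen barcodes. Collagens IX and XII sit on the surface of fibrils. COL12A1, a chain found in tendon and fascia, had 1.37 CPM in WT and 13.7 CPM in FKO, 3.33 (3.03 to 3.64), and its share in collagen barcodes was 6.67% in WT and 74.7% in FKO. COL9A1, a cartilage chain, had 1.69 CPM in WT and 3.26 CPM in FKO, 0.95 (0.62 to 1.28).

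The 10 basement membrane genes had smaller shares in collagen barcodes than the defining genes. The rule itself raises the shares of the defining genes, so this difference is not read. COL4A1 and COL4A2, which make the collagen IV trimer of most basement membranes, are neighbours on chromosome 13 that start 126 bases apart and run in opposite directions. COL4A5 and COL4A6, chains of restricted basement membranes, form the same kind of pair on the X chromosome, with 379 bases between their starts. COL4A6 had 2 promoter entries, and the distance and sequence shown are those of 1 start. The promoter sequences are shown because each pair shares the stretch between its starts, so levels of neighbours can be set beside the sequence they share. Of the 40 members, 29 had a promoter entry in the RefSeq table of build GRCh38. Capitals mark the letters CCAAT or GGGCGG, with ATTGG and CCGCCC as the same letters on the other strand. COL4A1 and COL4A2 share chr13:110307158-110307283, printed on the plus strand. COL4A5 is chrX:108439588-108439837 on the plus strand, and COL4A6 is chrX:108439459-108439708 on the minus strand. The last 2 windows overlap by 121 bases.
COL4A1 and COL4A2: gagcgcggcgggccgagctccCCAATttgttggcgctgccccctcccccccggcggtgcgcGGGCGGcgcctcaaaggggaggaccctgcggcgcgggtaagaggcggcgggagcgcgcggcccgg
COL4A5: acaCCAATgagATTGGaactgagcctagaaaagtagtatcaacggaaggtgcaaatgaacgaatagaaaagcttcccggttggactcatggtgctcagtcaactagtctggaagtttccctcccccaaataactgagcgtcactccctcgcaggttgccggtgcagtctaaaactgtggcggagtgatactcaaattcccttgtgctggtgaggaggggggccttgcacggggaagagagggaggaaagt
COL4A6: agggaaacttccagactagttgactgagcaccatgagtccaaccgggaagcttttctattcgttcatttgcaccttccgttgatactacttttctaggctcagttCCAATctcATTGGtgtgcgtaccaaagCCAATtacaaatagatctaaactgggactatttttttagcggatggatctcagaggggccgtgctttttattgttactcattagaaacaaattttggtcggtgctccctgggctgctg

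Searched on both strands, CCAAT occurred 1 time in the COL4A1 and COL4A2 stretch, in 2 places before COL4A5 and in 3 before COL4A6. The 2 before COL4A5 lie in the bases that both windows share and are also 2 of the 3 before COL4A6. GGGCGG occurred 1 time in the first and not in the others. Of the 35116 promoter entries in the table, 21.1% held CCAAT and 34.6% GGGCGG in the 126 bases before the start, and 32.0% and 42.6% in 250 bases. TATAAA, the letters of a TATA box, and TGTTTAC, letters bound by forkhead proteins, were in none of the 3 sequences, and were in 10.7% and 2.98% of entries over 250 bases (5.87% and 1.41% over 126). These matches describe letters and not sites.

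The chromosome 13 pair was higher in FKO for both genes, by unequal amounts. COL4A1 stood at 2.60 CPM in WT and 32.9 CPM in FKO, a log2 ratio of 3.66 (3.45 to 3.88), and COL4A2 at 19.1 CPM in WT and 62.9 CPM in FKO, 1.72 (1.63 to 1.81). Both stayed higher outside collagen barcodes, at 3.05 (2.81 to 3.29) and 1.35 (1.25 to 1.44). On the X chromosome the neighbours differed. COL4A5 stood at 2.99 CPM in WT and 5.49 CPM in FKO, 0.87 (0.63 to 1.13), while COL4A6 stood at 8.85 CPM in WT and 8.70 CPM in FKO, -0.02 (-0.19 to 0.14). Collagen barcodes held 40.0% of COL4A5 in WT and 27.4% in FKO, but 3.82% of COL4A6 in WT and 5.75% in FKO. Other neighbours among the members were LUM and DCN on chromosome 12, COL3A1 and COL5A2 on chromosome 2, and COL6A1 and COL6A2 on chromosome 21, with 28989, 19151 and 93063 bases between the genes.

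COL18A1, whose collagen carries the endostatin fragment, stood at 5.45 CPM in WT and 23.4 CPM in FKO, 2.10 (1.94 to 2.26). Laminins are heterotrimers of an alpha, a beta and a gamma chain. LAMA1, the alpha chain of early embryonic laminin, stood at 3.09 CPM in WT and 6.96 CPM in FKO, 1.17 (0.94 to 1.41), and LAMA4, the alpha chain of vessels and mesenchyme, at 0.781 CPM in WT and 11.5 CPM in FKO, 3.88 (3.4997 to 4.29). Their partner chains followed, LAMB1 at 5.66 CPM in WT and 14.6 CPM in FKO, 1.36 (1.19 to 1.53), and LAMC1 at 3.35 CPM in WT and 15.2 CPM in FKO, 2.18 (1.98 to 2.39). NID1, which links laminin to collagen IV, had only 26 and 177 UMIs, and a ratio of 3.17 (2.58 to 3.83). LAMA1 differed from LAMA4 in where it lay: collagen barcodes held 3.80% of LAMA1 in WT and 4.71% in FKO, and 33.3% of LAMA4 in WT and 58.5% in FKO.

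Small leucine-rich proteoglycans bind collagen fibrils and set their spacing, and 2 of the 4 had ratios near the median of all genes compared. DCN (ENSG00000011465) encodes decorin and LUM (ENSG00000139329) lumican. DCN stood at 7.72 CPM in WT and 10.1 CPM in FKO, 0.39 (0.22 to 0.56), and LUM at 12.1 CPM in WT and 15.9 CPM in FKO, 0.39 (0.26 to 0.52), both within the spread of all genes around their median of 0.47. OGN, which encodes osteoglycin, and BGN, which encodes biglycan, were rare in WT with 35 and 33 UMIs and had 404 and 329 in FKO. Their ratios were 3.94 (3.44 to 4.48) and 3.73 (3.21 to 4.29). The single WT cell named above held 32 of the OGN UMIs, and without the top cells the ratio of OGN was 7.44.

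The proteoglycans that bind hyaluronan, NCAN, VCAN and BCAN, lay mostly outside collagen barcodes. NCAN, neurocan of the neuronal matrix, stood at 40.6 CPM in WT and 88.6 CPM in FKO, 1.12 (1.06 to 1.19), and collagen barcodes held 0.577% of its UMIs in WT and 1.21% in FKO, less than their share of all UMIs. VCAN, versican of embryonic and neural matrix, stood at 37.6 CPM in WT and 131 CPM in FKO, 1.80 (1.74 to 1.86), with 3.01% of its UMIs in WT and 23.2% in FKO in collagen barcodes, and was the member at the median ratio of the 25. BCAN, brevican, had 32 and 344 UMIs, 3.83 (3.31 to 4.40), and collagen barcodes held 18.8% of its UMIs in WT and 35.5% in FKO.

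FN1 encodes fibronectin, which links the matrix to integrins, and stood at 3.46 CPM in WT and 47.9 CPM in FKO, 3.79 (3.61 to 3.98). Its ratio was larger outside collagen barcodes, 4.31 (3.96 to 4.67), and those barcodes held 72.6% of its UMIs in WT and 61.2% in FKO. FBN1 and FBN2 encode the fibrillins of elastic microfibrils. FBN1 stood at 1.52 CPM in WT and 9.12 CPM in FKO, 2.58 (2.29 to 2.88), and FBN2 at 0.716 CPM in WT and 5.30 CPM in FKO, 2.89 (2.47 to 3.33).

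Matricellular proteins act on cells and on matrix assembly rather than as scaffold, and they held the widest range of ratios. MGP (ENSG00000111341), an inhibitor of calcification, had 3 UMIs in WT and 1108 in FKO, 0.0391 CPM (0.00805 to 0.114) and 19.1 CPM (18.0 to 20.3). The log2 ratio of 8.94 (7.39 to 11.22) was the highest among the members, and its wide interval came from the 3 WT UMIs. Outside collagen barcodes WT had 0 MGP UMIs against 41 in FKO, so the ratio there was at least 4.20 with 3 counts as the floor. POSTN, periostin of periosteum and wounds, stood at 1.16 CPM in WT and 26.7 CPM in FKO, 4.52 (4.22 to 4.85). All its WT UMIs in collagen barcodes came from 1 cell, 18 of 89. SPARC, a collagen-binding glycoprotein, stood at 27.3 CPM in WT and 49.4 CPM in FKO, 0.86 (0.78 to 0.94), and TNC, tenascin of migrating and injured tissue, at 3.22 CPM in WT and 8.29 CPM in FKO, 1.37 (1.14 to 1.59).

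SPARCL1, a relative of SPARC made by astrocytes and vessels, ran in opposite directions within collagen barcodes and over all other cells pooled. It was higher in FKO over all kept cells, 5.95 CPM in WT and 17.6 CPM in FKO, 1.57 (1.41 to 1.73). Within collagen barcodes it was lower in FKO, -1.30 (-1.66 to -0.95), and outside them higher, 2.39 (2.18 to 2.60). Collagen barcodes held 48.4% of its UMIs in WT and 9.51% in FKO. In FKO, 687 of its 1020 UMIs lay in cells with few or no UMIs of the collagen, cycling, floor plate and serotonergic genes used below to assign cells to classes. The ratio in such cells was 4.17 (3.38 to 5.08). The other classes differed from it. Floor plate gene cells were lower in FKO, -1.36 (-1.78 to -0.94), and the interval of cycling cells included 0, -0.49 (-1.16 to 0.18). Serotonergic gene cells had 0.55 (0.12 to 0.99), near the median of 0.47 in that class.

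TIMP1 (ENSG00000102265), an inhibitor of matrix metalloproteinases, was the only member called lower in FKO. It stood at 112 CPM (109 to 114) in WT and 36.2 CPM (34.6 to 37.8) in FKO, a log2 ratio of -1.63 (-1.70 to -1.56). The ratio depended on the cells. Outside collagen barcodes TIMP1 was lower in FKO, -2.24 (-2.32 to -2.15). Within them its ratio was 0.57 (0.41 to 0.73), near the median of 0.47 for all genes compared there. The difference was larger among kept cells with a TPH2 UMI, -2.41 (-2.52 to -2.30), and at most 5% mitochondrial UMIs, -2.29 (-2.46 to -2.12). TIMP3, an inhibitor bound to the matrix, stood at 2.10 CPM in WT and 8.12 CPM in FKO, 1.95 (1.69 to 2.22). MMP2, a gelatinase that cuts collagen IV, had 5.04 CPM in WT and 24.5 CPM in FKO, 2.28 (2.12 to 2.45). LOX, which crosslinks collagen and elastin, was rare, with 17 and 63 UMIs and a ratio of 2.30 (1.51 to 3.16).

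How far collagen barcodes held each gene was measured as its share of UMIs in them. A gene counted as held where that share was at least 5 times the barcodes' share of all UMIs, which meant 13.0% in WT and 18.5% in FKO. Of 38 members with at least 20 UMIs in WT, 25 were held, where 6.20% of all 18235 such genes were. In FKO 34 of 40 were held, where 5.78% of 20027 genes were. Since shares in these barcodes chose the members, nothing is read from the counts. In WT 8 of 19 were held at most 5% mitochondrial UMIs, against 1.57% of all genes, and 15 of 30 among cells with a TPH2 UMI, against 5.91%. Large shares in both libraries belonged to the defining genes COL1A1 at 94.5% (89.5 to 97.6) in WT and 96.0% (95.4 to 96.6) in FKO and DCN at 90.2% (87.5 to 92.5) in WT and 92.0% (89.5 to 94.04) in FKO. The WT share of COL1A1 was mostly 1 cell, and without it 10 of the other 18 WT UMIs lay in collagen barcodes. The WT share of OGN came from the same cell, and is not read. NCAN and LAMA1 had shares below 5% in both libraries.

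Each defining gene raises its own share, so each was also scored in barcodes set by the other 4. COL1A1 then had 93.8% of its UMIs in such barcodes in WT and 95.2% in FKO, and without the top WT cell 9 of 18 UMIs in WT. COL1A2 had 61.6% and 82.7%, DCN 75.2% and 83.9%, and LUM 53.9% and 90.3%. COL3A1 kept 88.8% in FKO but 30.5% in WT, where much of it lay apart from the others. Without the top WT cell the WT shares were 38.6% for COL1A2, 18.9% for COL3A1, 74.4% for DCN and 50.5% for LUM.

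**Figure D3:**
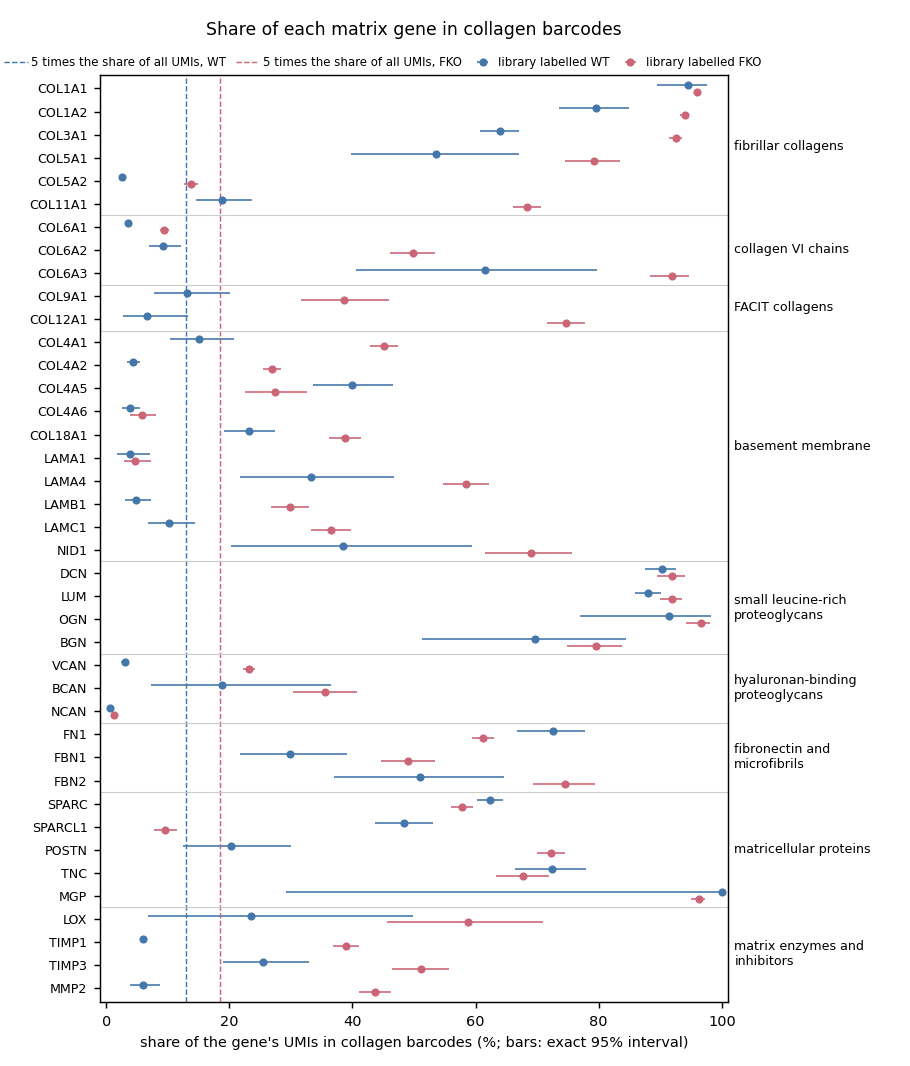
Share of each matrix gene's UMIs in collagen barcodes, in percent, in the library labelled WT (blue) and the library labelled FKO (red), with exact 95% intervals as bars and 5 times the barcodes' share of all UMIs as dashed lines. In both libraries NCAN has the lowest share, under 2%, and COL1A1, DCN, OGN and MGP have shares above 90%. The WT shares of COL1A1 and OGN come mostly from 1 cell, and that of MGP rests on 3 UMIs.

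Collagen barcodes of the libraries were led by different genes, and the name does not mean that each held collagen. In WT 47 of 102 had 0 UMIs of COL1A1, COL1A2 and COL3A1 and qualified on DCN and LUM alone, as did 5 of 175 in FKO. In WT, 68 of 102 had more UMIs of DCN and LUM than of COL1A1 and COL1A2, and 19 had more collagen I. In FKO, 164 of 175 had more collagen I and 10 had more DCN and LUM. This comparison leaves out COL3A1, which was counted as the top of the 5 defining genes in 34 WT and 20 FKO barcodes. At least 5 UMIs of DCN and LUM occurred in 65 barcodes in WT, of which 2 also had at least 5 of collagen I. In FKO they occurred in 77, of which 70 also did. The DCN and LUM of WT and of FKO were thus carried by cells with different collagen content, although the pooled levels were close.

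**Figure D4:**
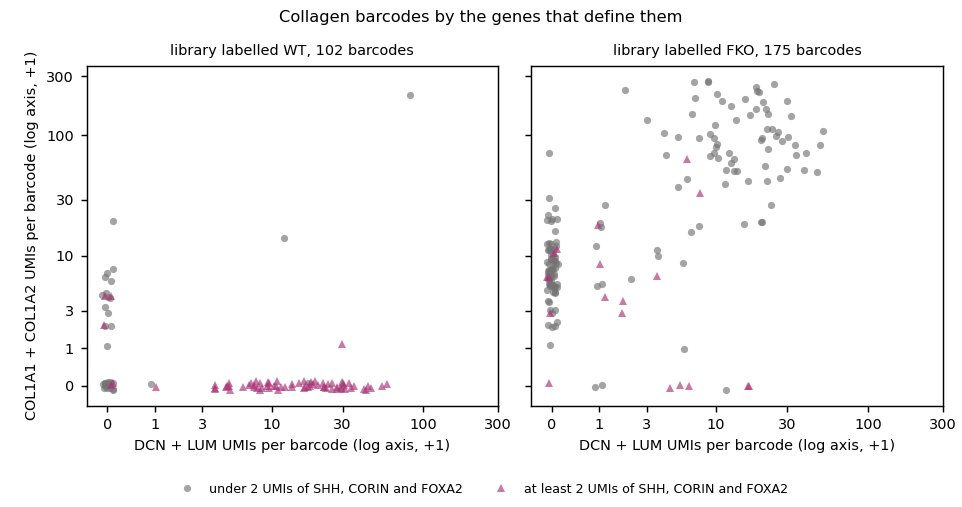
Each point is 1 collagen barcode, placed by its UMIs of DCN and LUM (horizontal) and of COL1A1 and COL1A2 (vertical) on log axes with 1 added, with a small random shift, 1 panel per library and triangles for at least 2 UMIs of SHH, CORIN and FOXA2. The 102 barcodes labelled WT lie mostly along the horizontal axis, as triangles, and the 175 labelled FKO mostly above it, as circles.

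Markers of other cell types moved with these kinds of barcodes. SHH, SPON1 and CORIN are genes of the floor plate, the ventral midline that secretes Sonic hedgehog, and SPON1 stood at 27.8 CPM in WT and 27.8 CPM in FKO. SHH at 5.91 and 2.75 CPM and CORIN at 3.36 and 0.794 CPM were lower in FKO. NTN1 at 5.30 and 12.2 CPM and FOXA1 at 2.45 and 9.07 CPM were higher there, as FOXA2 was. In WT collagen barcodes held 72.7% of SHH, 72.4% of SPON1 and 73.3% of CORIN, and in FKO 7.55%, 15.1% and 13.0%. At least 2 UMIs of SHH, CORIN and FOXA2 occurred in 70 of 102 collagen barcodes in WT and 19 of 175 in FKO. Of the 65 WT barcodes with at least 5 UMIs of DCN and LUM, 61 were among them. FOXA2 itself had 26.6% of its WT UMIs and 11.7% of its FKO UMIs in collagen barcodes. The part of these cells in the levels of DCN and LUM was not tested.

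In FKO the collagen barcodes carried mesenchymal and neural crest genes. Of 11 mesenchymal markers outside the members, 10 were detected in WT and 11 in FKO, with TBX15 at 0 in WT, and they summed to 49.1 CPM in WT and 91.0 CPM in FKO with THY1, which neurons express as well, as the most abundant. PRRX1, a transcription factor of limb and head mesenchyme, had 13 and 895 UMIs, and 78.7% of those in FKO lay in collagen barcodes. The 7 neural crest and Schwann markers summed to 6.46 CPM in WT and 87.6 CPM in FKO with S100B as the most abundant, and SOX10, their defining transcription factor, had 0 and 412 UMIs, a log2 ratio of at least 7.51 with 3 counts as the floor. In collagen barcodes the sums were 88.9 and 757 CPM for mesenchymal and 26.1 and 1142 CPM for neural crest markers. At least 2 UMIs of mesenchymal markers other than THY1 occurred in 137 collagen barcodes in FKO and 17 in WT. For neural crest and Schwann markers the numbers were 99 and 9. What these cells contributed to the ratios of the members was not tested.

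Marker UMIs were then counted within the kinds. The 68 WT barcodes with more DCN and LUM than collagen I held 1540 SPON1, 321 SHH and 966 TTR UMIs, and 1 COL1A1 and 0 PRRX1 UMIs. They did hold 45 UMIs of TWIST1, another mesenchymal marker, at 36.3 CPM, against 7.88 CPM in the 19 WT barcodes with more collagen I. TTR encodes transthyretin, a marker of choroid plexus. They carried the WT matrix genes unevenly, with SPARC at 839 CPM, TNC at 132 and FN1 at 102, and with POSTN at 0 UMIs. The 164 FKO barcodes with more collagen I than DCN and LUM held 703 PRRX1, 129 TWIST1 (64.4 CPM), 927 S100B and 222 SOX10 UMIs. They carried POSTN at 552 CPM, MGP at 514 and VCAN at 864. These were not 1 uniform set. At least 2 UMIs of mesenchymal markers without such neural crest UMIs occurred in 64 of them, with a median of 91 collagen I UMIs, 29 had neural crest markers alone, with a median of 6, and 68 had both, with a median of 10. DCN or LUM was found in 64, 5 and 18 of these.

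Other marker lists gave these values, and their part in the matrix levels was not tested. All 7 cycling markers were detected, at 68.5 CPM in WT and 89.6 CPM in FKO in sum with CENPF as the most abundant, and collagen barcodes held 43.5% and 43.4% of them. All 7 progenitor markers were detected at 289 CPM in WT and 269 CPM in FKO, led by SOX2. Of 7 mural markers 6 could be matched and were detected, at 7.89 CPM in WT and 15.8 CPM in FKO, led by TAGLN. Markers of vessel lining and blood were near 0. The 6 endothelial markers had 65 UMIs in each library, 0.846 CPM in WT and 1.12 CPM in FKO, with 5 detected in each, CLDN5 as the most abundant, CDH5 at 0 in WT and PECAM1 at 0 in FKO. Of 3 immune markers 2 were detected in WT, where PTPRC was at 0, and 3 in FKO, at 0.0911 CPM in WT and 0.311 CPM in FKO, led by AIF1. Of 5 epithelial markers 4 were detected in WT, where CDH1 was at 0, and 5 in FKO, at 51.5 CPM in WT and 32.8 CPM in FKO, led by KRT19 in WT and EPCAM in FKO. The last lists were low as well. All 4 pluripotency markers were detected at 3.38 CPM in WT and 1.74 CPM in FKO, led by DPPA4, and all 4 oligodendrocyte precursor markers at 1.38 CPM in WT and 8.77 CPM in FKO, led by OLIG2 in WT and CSPG4 in FKO.

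All kept cells were then assigned, in this order, to collagen barcodes, cycling cells (at least 5 UMIs of MKI67, TOP2A, CENPF, BIRC5, UBE2C and TPX2), floor plate gene cells (at least 2 UMIs of SHH, CORIN and FOXA2), serotonergic gene cells (at least 2 UMIs of TPH2 and FEV) and the rest. The serotonergic class was the largest, with 5398 cells in WT and 5862 in FKO, 93.9% and 84.0%. Its limit was also met by 70 of 102 collagen barcodes in WT and 51 of 175 in FKO, which the order kept out of it. The members summed to 411 CPM there in WT and 514 in FKO, and in collagen barcodes, a class set by 5 of the members, the sums were 2951 and 14215 CPM. Cycling cells (28 cells in WT and 60 in FKO) had 897 and 2555 CPM, and floor plate gene cells (56 cells in WT and 190 in FKO) had 1019 and 1185 CPM. FOXA2, a gene that sets the floor plate gene class, stood there at 119 CPM in WT and 331 CPM in FKO. SHH and CORIN were lower in FKO over all kept cells. Whether this class held the same kind of cells in both libraries was not tested. The rest numbered 166 cells in WT and 691 in FKO, with 427 and 1534 CPM.

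Of the 25 members compared within serotonergic gene cells, 6 were called higher and 2 lower, against 5.99% and 10.5% of all genes. Nothing is read from these counts. NCAN and VCAN were higher in FKO there, by 0.66 and 0.88 above the class median of 0.47, short of the 2-fold call. NCAN stood at 41.6 and 91.1 CPM, 1.13 (1.06 to 1.20), and VCAN at 36.5 and 92.9 CPM, 1.35 (1.28 to 1.42). COL6A1 at 74.0 and 103 CPM and COL5A2 at 69.4 and 62.3 CPM differed less between the libraries, and COL4A2 had 18.4 and 37.5 CPM. FN1 was low in both, 0.679 and 7.23 CPM, 3.41 (2.98 to 3.87). TIMP1 was lower in FKO here, with 7766 and 796 UMIs, 108 and 16.4 CPM, -2.72 (-2.83 to -2.61). It was also lower in floor plate gene cells, -1.37 (-1.75 to -0.99), and in cycling cells, -0.39 (-0.78 to -0.006). In the rest its interval included 0, -0.33 (-0.67 to 0.03). COL1A1 had 7 and 132 UMIs in serotonergic gene cells, and COL3A1 283 and 117, -0.71 (-1.03 to -0.39), both limited by the collagen rule. Also lower in FKO here were COL5A2 at -0.16 (-0.22 to -0.09), COL6A2 at -0.27 (-0.50 to -0.05) and COL4A6 at -0.31 (-0.51 to -0.12).

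Shares of cells with a UMI were read beside the class that should lack the gene, raw and with cells thinned to 2000 UMIs, which left out 43 cells in WT and 116 in FKO. LUM and COL1A2 help to define collagen barcodes, and serotonergic gene cells lie below that limit. Their contrast between these classes, and between the collagen barcodes of the libraries, follows from the rule and is not read. LUM was found in 66.7% of WT collagen barcodes and 1.04% of serotonergic gene cells, and thinned in 38.2% and 0.0743%. In FKO these shares were 50.9% and 0.682%, and thinned 37.1% and 0.171%. COL1A2, which itself helps to admit collagen barcodes, was in 17.6% of them in WT and 88.6% in FKO, with thinned shares of 5.88% and 74.9%. Serotonergic gene cells had it in 0.556% and 2.75%, and thinned in 0.0743% and 0.668%. Median depths of the collagen and serotonergic classes were 18069 and 12473 UMIs in WT and 9605 and 6977.5 in FKO. TIMP1 was in 61.7% of WT and 10.7% of FKO serotonergic gene cells, and thinned in 16.9% and 3.05%. In collagen barcodes it was in 90.2% in WT and 89.7% in FKO, and thinned in 37.3% and 52.6%. NCAN was found in 39.8% of WT and 49.1% of FKO serotonergic gene cells and in 14.7% and 15.4% of collagen barcodes. Thinned, it was in 8.004% and 17.3% of serotonergic gene cells and in 0 and 6 collagen barcodes.

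**Figure D5:**
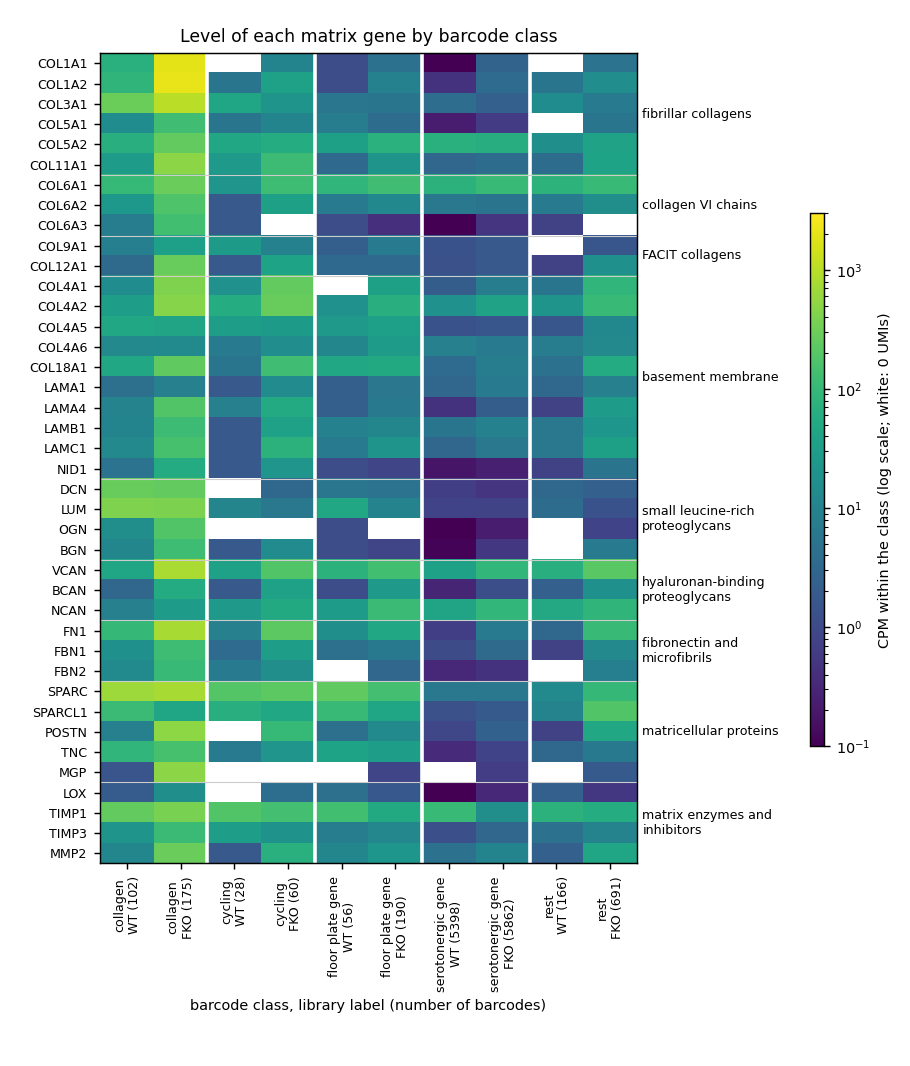
Level of each matrix gene within each class of kept cells, in CPM of that class on a log color scale, with classes and labels as columns and genes as lines grouped by role, and white marks 0 UMIs. The collagen columns are brightest for most genes, while COL6A1, COL5A2, NCAN and TIMP1 are also bright in the serotonergic gene column of WT.

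Outside the members, the 10 genes with the highest share in collagen barcodes of both libraries were SERPINF1, OLFML3, ITIH5, GPX8, PDGFRB, CAVIN1, AHNAK, ANXA1, TTR and SSPN. They were ranked by the lower of their shares among genes with at least 50 UMIs in each library. SERPINF1, which encodes an anti-angiogenic factor, had 68.3% in WT and 82.3% in FKO, and OLFML3, a secreted glycoprotein, 63.9% in WT and 85.1% in FKO. PDGFRB, the growth factor receptor of mural and mesenchymal cells, had 59.6% in WT and 69.1% in FKO.

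Genes that make, bind or remodel matrix were compared as lists, and 5.75% of all genes compared were called higher and 9.70% lower. For collagen synthesis and crosslinking no gene past the limit was called: 11 of 23 genes passed 10 CPM, 0 were called higher and 0 lower, and they summed to 652 CPM in WT and 665 CPM in FKO, with PPIB, a prolyl isomerase of collagen folding, as the most abundant. Of 24 matrix receptors 9 passed, 0 were called higher and 0 lower, and the sum was 324 CPM in WT and 542 CPM in FKO, led by the integrin gene ITGB1. Of 12 other basement membrane genes 1 passed, 0 were called higher and 0 lower, and the sum was 21.1 CPM in WT and 44.6 CPM in FKO, led by AGRN. Calls were found among the remaining lists. Of 26 other matrix proteins 5 passed and 2 were called higher, COL2A1 of cartilage at 2.23 (1.98 to 2.49) and TNR, tenascin-R of neural matrix, at 3.75 (3.39 to 4.13). None was called lower, FMOD had 0 UMIs in WT, and the sum was 71.8 CPM in WT and 135 CPM in FKO, led by SPON1. Of 17 remodelling genes 8 passed and 1 was called higher, the protease gene ADAMTS9 at 1.92 (1.76 to 2.08), with 0 lower and a sum of 209 CPM in WT and 363 CPM in FKO, led by TIMP2. Many genes of the lists did not reach 10 CPM. Without that limit, 4 synthesis, 10 receptor, 7 other basement membrane, 19 other matrix and 7 remodelling genes lay at least 2-fold above the median, where 25.1% of all genes did. At least 2-fold below it lay 1, 0, 0, 1 and 1, where 9.99% of all did.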

How the data were processed

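The deposited files held raw UMI counts per gene and barcode, which the authors made with Cell Ranger. Per the file headers it was version 7.1.0, and the submitters' processing notes name Cell Ranger 7.0 and GRCh38. No ambient RNA correction or normalization was applied to those counts here beyond CPM.

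Barcodes stayed if they had 1000 UMIs and 500 genes or more and 10% or less of mitochondrial UMIs (6385 in WT and 7573 in FKO). Scrublet in scanpy scored all deposited barcodes of each library, and the highest scores were marked as doublets at 0.8% per 1000 barcodes, 977 and 620 barcodes, and removed. Tools were python 3.11.15, scanpy 1.11.5, numpy 2.4.6, scipy 1.17.1, pandas 2.3.3 and matplotlib 3.10.9.

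UMIs were summed over kept cells and divided by their total. Ratios were taken for genes with more than 3 UMIs in either library, with 3 counts as the floor where a count was 0. Calls and medians used genes with at least 10 CPM in either library, unless no minimum is stated. Classes were assigned in the order collagen, cycling, floor plate gene, serotonergic gene, rest. Named genes were the 40 members, FOXA2, the marker and pathway lists, and the 10 other genes with the highest share in collagen barcodes. Members and lists were chosen with earlier results of these data known. RGS5 was left out of the mural list because its symbol names 2 entries. The floor plate list as a whole is not reported here.

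Alternatives covered the barcodes that entered, the mitochondrial and doublet limits, cells with a TPH2 UMI, depth, the barcodes with most collagen, the minimum CPM, scaling, pooling and the collagen limit. Leaving out the top barcode, and the FOXA2 and TIMP1 ratios in other sets of cells, were added after the data were seen. The kinds of collagen barcodes and the limit of 2 marker UMIs were also chosen after values were seen. Promoters came from RefSeq windows of 250 bases before to 50 after each start.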

Additional observations from a re-analysis of the deposited data

How the results depend on the processing

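Of 85 recomputed values 49 stayed inside the main value's 95% interval, or for counts within 1.5-fold of the main count, and 36 moved. For each median the interval was that of the member at it, VCAN over all kept cells and COL11A1 outside collagen barcodes. Such an interval covers the counting error of a single gene only. No median changed its sign, but each library was scored alone, and the order of the libraries by share of collagen barcodes turned at 5% mitochondrial UMIs. The cause was not tested. The median log2 ratio of the members (main 1.80) was 1.89 with all deposited barcodes, 1.24 at most 5% mitochondrial UMIs, 1.40 in cells with a TPH2 UMI, 1.96 at 2000 UMIs per cell, 2.01 without the 10 barcodes with most collagen, 2.04 without the top barcode, 1.42 at 50 CPM, 2.14 with no minimum CPM, 1.32 with libraries scaled to a median ratio of 1, and 1.89 with the mean CPM of cells. Members at least 2-fold above the median of all genes (main 16 of 25) were 8 of 21 at 5% mitochondrial UMIs, 8 of 16 with a TPH2 UMI and 4 of 8 at 50 CPM, where 9.91%, 6.42% and 6.26% of all genes were. Those at least 2-fold below (main 1 of 25) were 4 of 21 at 5% mitochondrial UMIs, where 14.4% of all genes were.

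Collagen barcodes in WT (main 1.77%) were 1.28% of all deposited barcodes, 4.71% at 5% mitochondrial UMIs, 0.559% with a TPH2 UMI, 0.175% at 2000 UMIs, 1.13% at a limit of 10 UMIs, 2.43% at 3 UMIs and 1.30% at a limit scaled to each cell's depth. In FKO (main 2.51%) they were 2.99% of all deposited barcodes, 1.63% at 5% mitochondrial UMIs, 2.93% with doublets kept, 0.928% with a TPH2 UMI, 1.18% at 2000 UMIs, 1.73% at 10 UMIs and 3.28% at 3 UMIs. Members held 5-fold in WT (main 25 of 38) were 8 of 19 at 5% mitochondrial UMIs and 15 of 30 with a TPH2 UMI, where 1.57% and 5.91% of all genes were. The median outside collagen barcodes (main 1.47) was 0.72 at 5% mitochondrial UMIs, 1.11 with a TPH2 UMI, 1.24 at 50 CPM, 0.99 scaled, 1.74 at a collagen limit of 10 UMIs and 1.19 at 3 UMIs.

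With 1 library per label, differences between cultures, clones and sorts cannot be told apart from the labels. FOXA2 stood higher where its knockout was named, although at most 5% mitochondrial UMIs its log2 ratio was 0.17 (-0.27 to 0.64). Among the floor plate genes named above, SHH and CORIN were lower in FKO, NTN1 and FOXA1 higher, and SPON1 level. Directions rest on labels. Depth and mitochondrial share differed between the libraries, and free RNA was not removed.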
